A study of Mus musculus with 8 samples.

Results

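The genes described here were the receptors and ligands of the epidermal growth factor receptor (EGFR) family together with Errfi1, the gene of a cytoplasmic inhibitor of the receptors. They were taken by gene name from the deposited count table, which gave 10 genes of the 54532 listed: the receptors Egfr, Erbb2 and Erbb3, the ligands Areg, Ereg, Hbegf, Tgfa, Btc and Egf, and Errfi1. RNA was sequenced from whole lungs of 14-week-old CC-LR mice. These animals, on a C57BL/6 background, carry CCSP-Cre and LSL-K-ras G12D, so that Cre made from the club cell secretory protein locus switches on mutant K-ras in lung epithelium, and lung tumors form without further treatment. Both groups therefore carried the same oncogene. The Control group held 4 mice, and the TTI-101 group held 4 mice that received TTI-101, a small-molecule inhibitor of canonical STAT3 signaling, for 4 weeks from 10 weeks of age. The labels do not say what the control mice received, and the route of TTI-101 for these animals was not given in the sources used here.

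EGFR family receptors are tyrosine kinases of the cell surface. A ligand such as amphiregulin (Areg), epiregulin (Ereg), betacellulin (Btc), transforming growth factor alpha (Tgfa), heparin-binding EGF-like growth factor (Hbegf) or EGF is made as a membrane-bound precursor, is released by proteases of the ADAM family, and causes EGFR to dimerize and to signal through RAS and ERK, PI3K and STAT proteins. ERBB2 has no known ligand and acts as a partner of the other receptors, and ERBB3 binds neuregulins and has little kinase activity of its own. In the lung these receptors serve epithelial repair and growth, and in K-ras mutant tumors they act upstream of, and are fed back on by, the mutated pathway.

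Library totals were 16446481 to 26873509 counts in the Control group and 16075855 to 25920509 counts in the TTI-101 group. One control library stood apart from the other 7. In control mouse 4, mitochondrial genes took 5.56% of counts against at most 2.85% in the others, and the 10 most abundant genes took 15.3% against 7.09% to 11.3%. The cell type marker lists checked for lung were all detected, and no marker of the 18 lists was at 0 in every library. In all, 17138 genes had enough counts to be tested. The quasi-likelihood test of edgeR called 0 of them (0.0%) at a Benjamini-Hochberg adjusted p under 0.05, whereas 1132 genes (6.61%) had an unadjusted p under 0.05. DESeq2 called 4 of the 31769 genes to which it gave an adjusted p (0.0126%). All 10 family genes had at least 10 counts in every library and were tested, so that none was lost to the filter on low counts.

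With TTI-101, the ligands Ereg, Areg, Btc and Tgfa had lower transcript levels at an unadjusted p under 0.05. The groups overlapped for Areg and for the other 6 genes. In total 7 family genes were lower and 3 were higher in the TTI-101 group, with a median log2 fold change of -0.42 against 0.0034 over all genes tested. By edgeR, 4 of 10 genes had an unadjusted p under 0.05, all lower in TTI-101, and 0 were higher. The same threshold was passed by 6.61% of all genes tested, 3.58% lower and 3.02% higher. No family gene passed after adjustment over all genes, by edgeR, by DESeq2 or by limma-voom; adjusted p was at least 0.657 by edgeR. Levels in CPM (counts per 1000000 counts of the library, with TMM scaling factors) did not overlap between the groups for 3 of the 10 genes, Ereg, Btc and Tgfa, all lower in TTI-101, beside 1.43% of all genes tested that were lower without overlap. The count of 4 depended on single mice: it was 1, Ereg, without control mouse 4 (beside 3.03% of all genes in that fit), and 4, Ereg, Areg, Erbb2 and Erbb3, without control mouse 4 and TTI-101 mouse 2 together (beside 12.2%). Because the samples are whole lungs, fewer cells that express a gene and less RNA of that gene per cell cannot be told apart.

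**Figure D1:**
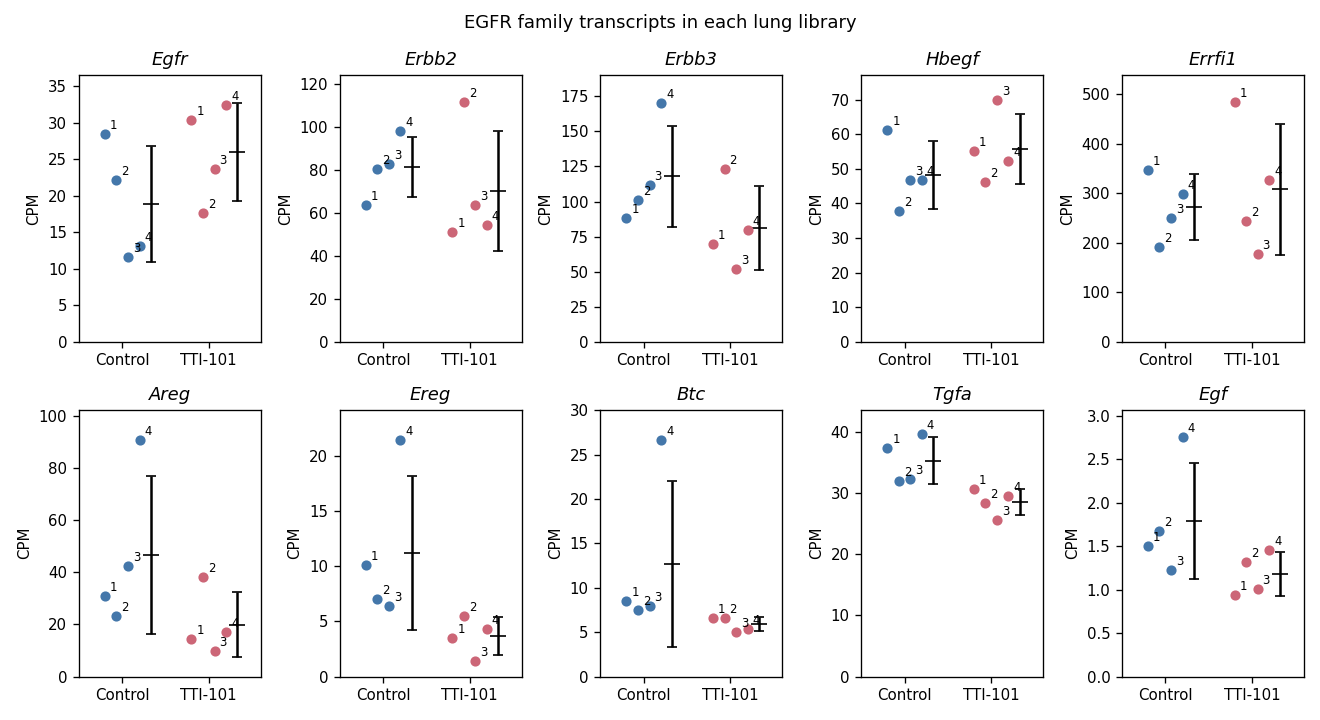
CPM of each of the 10 genes in each mouse, on linear axes that start at 0 with a separate scale per gene. Dots are mice numbered by replicate and black bars are the group mean with its SD (n = 4 per group). Ereg, Btc and Tgfa do not overlap between groups, and control mouse 4 is the highest mouse for Areg, Ereg, Btc, Tgfa, Erbb3 and Egf.

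Epiregulin, a ligand of EGFR and ERBB4 that is induced in inflamed and injured epithelium, had the largest log2 difference of the 10 genes. Ereg (ENSMUSG00000029377; GRCm38 chr5:91074622-91093646, plus strand) was at 10.1, 7.05, 6.38 and 21.4 CPM in the 4 control mice and at 3.50, 5.52, 1.45 and 4.32 CPM in the 4 TTI-101 mice. Every TTI-101 mouse lay below every control mouse. Counts were low, at 276, 118, 115 and 335 in the control mice and 93, 92, 26 and 71 in the TTI-101 mice. Means were 11.3 ± 6.98 CPM (SD, n = 4) and 3.70 ± 1.72 CPM (SD, n = 4). The log2 fold change was -1.60 (SE 0.471; edgeR unadjusted p = 0.00632, adjusted p = 0.657), and an exact two-sided permutation test of mean log2 CPM gave p = 0.0286, the smallest value that 4 mice against 4 allow. DESeq2 gave an unadjusted p of 0.00036 and an adjusted p of 0.327. The unadjusted edgeR p stayed at or below 0.0202 whichever mouse was left out, with log2 fold changes of -1.84 to -1.08.

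Amphiregulin, a low-affinity EGFR ligand released by epithelium and by immune cells during tissue repair, had the highest mean TPM of the ligands in the control lungs, with a range that overlapped that of Hbegf. Areg (ENSMUSG00000029378; chr5:91139599-91148432, plus strand) was at 30.8, 23.4, 42.4 and 90.8 CPM in the control mice and at 14.4, 38.4, 9.95 and 17.2 CPM in the TTI-101 mice. The groups overlapped through TTI-101 mouse 2, whereas the other 3 treated mice were below all control mice. The log2 fold change was -1.23 (SE 0.484; edgeR unadjusted p = 0.0285, adjusted p = 0.657) and the exact permutation p was 0.0857. The call rested on single mice. Without control mouse 4 the log2 fold change was -0.68 (edgeR unadjusted p = 0.122), without TTI-101 mouse 2 it was -1.74 (edgeR unadjusted p = 0.00304), and 4 of the 8 fits that left out 1 mouse kept an unadjusted p under 0.05.

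Betacellulin, which binds EGFR and ERBB4, was scarce. Btc (ENSMUSG00000082361; chr5:91357261-91402994, minus strand) was at 8.51, 7.53, 7.93 and 26.7 CPM in the control mice and at 6.63, 6.61, 5.06 and 5.35 CPM in the TTI-101 mice. The groups did not overlap, but 3 control mice lay close to the treated ones and control mouse 4 was far above them. The log2 fold change was -1.09 (SE 0.408; edgeR unadjusted p = 0.0223, adjusted p = 0.657; exact permutation p = 0.0286). Without control mouse 4 it was -0.42 (edgeR unadjusted p = 0.0675), and 5 of the 8 fits without 1 mouse kept an unadjusted p under 0.05.

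Transforming growth factor alpha, a high-affinity EGFR ligand made by many epithelia, varied least between mice of a group. Tgfa (ENSMUSG00000029999; chr6:86195223-86275719, plus strand) was at 37.4, 32.0, 32.3 and 39.8 CPM in the control mice and at 30.8, 28.5, 25.6 and 29.5 CPM in the TTI-101 mice. The groups were close but did not overlap. Means were 35.4 ± 3.84 CPM (SD, n = 4) and 28.6 ± 2.18 CPM (SD, n = 4). The log2 fold change was -0.31 (SE 0.138; edgeR unadjusted p = 0.0486, adjusted p = 0.657; exact permutation p = 0.0286), only 1 of the 8 fits without 1 mouse kept an unadjusted p under 0.05, and without control mouse 4 the unadjusted edgeR p was 0.132. With all mice, Tgfa was also above 0.05 by DESeq2 (unadjusted p = 0.0654), limma-voom (0.0532), DESeq2 size factors (0.0537), library totals (0.0775), no filter (0.105) and the filter of 10 counts in every library (0.0507).

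Egf and Hbegf did not show this difference beyond the scatter. Egf (ENSMUSG00000028017; chr3:129677565-129755316, minus strand), the founding ligand, was scarce at 18 to 43 counts per mouse. Its mean was 1.79 ± 0.669 CPM (SD, n = 4) for the control mice against 1.18 ± 0.250 CPM (SD, n = 4) for the treated mice, with a log2 fold change of -0.60 (SE 0.364; edgeR unadjusted p = 0.131). Hbegf (ENSMUSG00000024486; chr18:36504929-36515805, minus strand), a heparin-binding ligand of EGFR and ERBB4, was at 61.3, 37.7, 46.9 and 46.9 CPM in the control mice and at 55.1, 46.1, 69.9 and 52.2 CPM in the TTI-101 mice. The ranges overlapped, and the log2 fold change was 0.21 (SE 0.182; edgeR unadjusted p = 0.271).

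The receptors differed among themselves in direction, and for each of them the groups overlapped. Egfr (ENSMUSG00000020122; chr11:16752203-16918158, plus strand), the receptor of all these ligands, was at 28.5, 22.1, 11.7 and 13.2 CPM in the control mice and at 30.3, 17.7, 23.6 and 32.5 CPM in the TTI-101 mice. TTI-101 mice 1 and 4 were above all control mice, and the log2 fold change was 0.46 (SE 0.302; edgeR unadjusted p = 0.157, adjusted p = 0.673). It was 0.74 (edgeR unadjusted p = 0.0281) without control mouse 1 and 0.29 (edgeR unadjusted p = 0.355) without control mouse 3. In the fit without control mouse 1, 2393 genes had an unadjusted p under 0.05, against 1132 with all mice. Erbb2 (ENSMUSG00000062312; chr11:98412470-98437716, plus strand), the partner receptor, was at 63.8, 80.6, 82.6 and 98.2 CPM in the control mice and at 51.1, 111.6, 63.5 and 54.5 CPM in the TTI-101 mice. TTI-101 mouse 2 had the highest value of all 8 mice and the other 3 treated mice were below all control mice, so the log2 fold change of -0.21 (SE 0.248; edgeR unadjusted p = 0.411) was within the scatter. Erbb3 (ENSMUSG00000018166; chr10:128567523-128589652, minus strand), the neuregulin receptor, was at 88.5, 101.3, 112.0 and 170.3 CPM in the control mice and at 69.8, 123.0, 52.0 and 79.9 CPM in the TTI-101 mice. Again 3 treated mice were below all control mice and TTI-101 mouse 2 was not, with a log2 fold change of -0.54 (SE 0.276; edgeR unadjusted p = 0.0777). Without TTI-101 mouse 2, Erbb2 had a log2 fold change of -0.52 (edgeR unadjusted p = 0.0132) and Erbb3 of -0.80 (edgeR unadjusted p = 0.00975), in a fit where 14.2% of all genes tested had an unadjusted p under 0.05. Other mice moved the values the other way. Without control mouse 4, Erbb2 was at -0.10 (edgeR unadjusted p = 0.706) and Erbb3 at -0.30 (edgeR unadjusted p = 0.264), and without TTI-101 mouse 1 or 4 Erbb2 was at -0.086 and -0.11. Erbb3 was at -0.65 (edgeR unadjusted p = 0.046) without control mouse 1.

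Errfi1 (ENSMUSG00000028967; chr4:150853919-150868892, plus strand) encodes MIG6, which binds the EGFR kinase domain and is induced by the signal it restrains. It was at 347.0, 192.1, 250.3 and 299.1 CPM in the control mice and at 484.3, 244.1, 177.6 and 326.6 CPM in the TTI-101 mice. The treated mice spanned both the highest and the lowest value, and the log2 fold change was 0.18 (SE 0.297; edgeR unadjusted p = 0.558). Its sign depended on single mice. Leaving out 1 mouse in turn gave edgeR log2 fold changes of -0.13, without TTI-101 mouse 1, to 0.37. The difference in mean log2 CPM turned to -0.14 without TTI-101 mouse 1 and to -0.041 without control mouse 2.

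**Figure D2:**
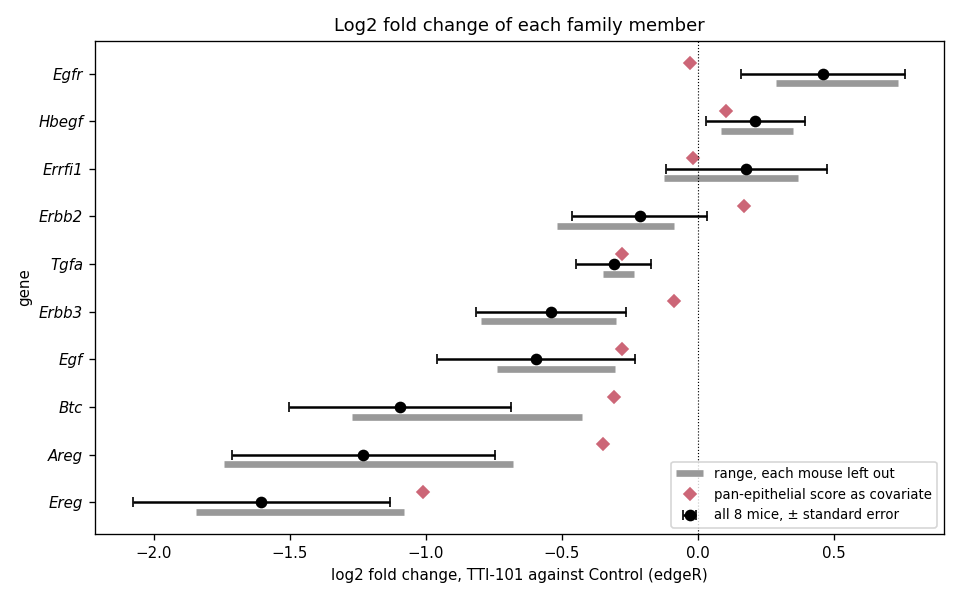
Log2 fold change of TTI-101 against Control for each gene, with the edgeR standard error (black dot and bar), the range of the fits that leave out 1 mouse (grey bar) and the value with the pan-epithelial marker score as a covariate (pink diamond). Ereg, Areg and Btc have the lowest values, from -1.60 to -1.09, and their diamonds lie closer to 0.

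To compare levels between genes, counts were divided by the gene length given in the table and scaled so that each library summed to 1000000 transcripts (TPM). Errfi1 was the most abundant family transcript in both groups, at 189 ± 56.4 TPM (SD, n = 4) in Control and 242 ± 114 TPM (SD, n = 4) in TTI-101. In the control lungs it was followed by Areg at 91.1 TPM, Hbegf at 50.8 TPM, Erbb3 at 47.6 TPM and Erbb2 at 38.3 TPM. Of these neighbors, Erbb3 and Erbb2 only just did not overlap in range (lowest Erbb3 41.11 TPM, highest Erbb2 41.06 TPM). Erbb2 and Tgfa did not overlap either (34.19 against 16.11 TPM), whereas the others did. Tgfa (13.5 TPM), Btc (6.62 TPM), Ereg (6.54 TPM) and Egfr (4.28 TPM) formed a lower tier in which each neighbor overlapped the next, and Egf was lowest at 0.386 TPM. In the TTI-101 lungs Hbegf, at 65.2 TPM, stood above Areg, at 44.4 TPM, and was above it in 3 of 4 mice. This order rested on the length of Hbegf given in the table, 2373 bases. With the 4834 bases of its exons in the GENCODE M21 annotation, an alternative chosen after the data had been seen, Hbegf was at 25.0 TPM in Control and 32.0 TPM in TTI-101 and stood below Areg in both groups. Only the length was changed here. The counts were not remade for that annotation, so the longer length may not match the reads counted. In the TTI-101 lungs Egfr, at 6.46 TPM, stood above Btc, at 3.61 TPM, and Ereg, at 2.47 TPM. On the TPM scale, which uses no TMM factor, Ereg still did not overlap between the groups (lowest control 3.64 TPM, highest treated 3.33 TPM). On that scale Btc overlapped narrowly (lowest control 4.13 TPM, highest treated 4.20 TPM). Tgfa overlapped widely, at 16.1, 13.1, 11.7 and 13.2 TPM in the control mice and 13.6, 10.9, 10.7 and 13.7 TPM in the TTI-101 mice.

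The make-up of the ligand transcripts followed from these levels. The 6 ligands summed to 169 ± 52.9 TPM (SD, n = 4; range 116 to 241) in Control and to 128 ± 12.5 TPM (SD, n = 4; range 117 to 145) in TTI-101, and the ranges overlapped. Areg made up 41.3%, 44.1%, 55.3% and 66.8% of that sum in the control mice and 28.1%, 54.2%, 19.0% and 32.9% in the TTI-101 mice. Hbegf made up 42.1%, 36.5%, 31.3% and 17.6% in the control mice and 55.0%, 33.3%, 68.3% and 51.1% in the TTI-101 mice. With these lengths Areg was above Hbegf in 3 of 4 control mice and in 1 of 4 TTI-101 mice. With the longer Hbegf length and the same counts, Areg was above Hbegf in 4 of 4 control mice and 3 of 4 TTI-101 mice. The mean share of Hbegf was then 19.0% in Control and 35.6% in TTI-101. The 3 receptors summed to 90.2 ± 9.86 TPM (SD, n = 4) and 79.8 ± 20.2 TPM (SD, n = 4), of which Egfr was 2.41% to 8.54% in Control and 3.59% to 11.1% in TTI-101. The ligand sum and each ligand's share of it rest on the Hbegf length in the table, and these values are a description that was not tested.

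**Figure D3:**
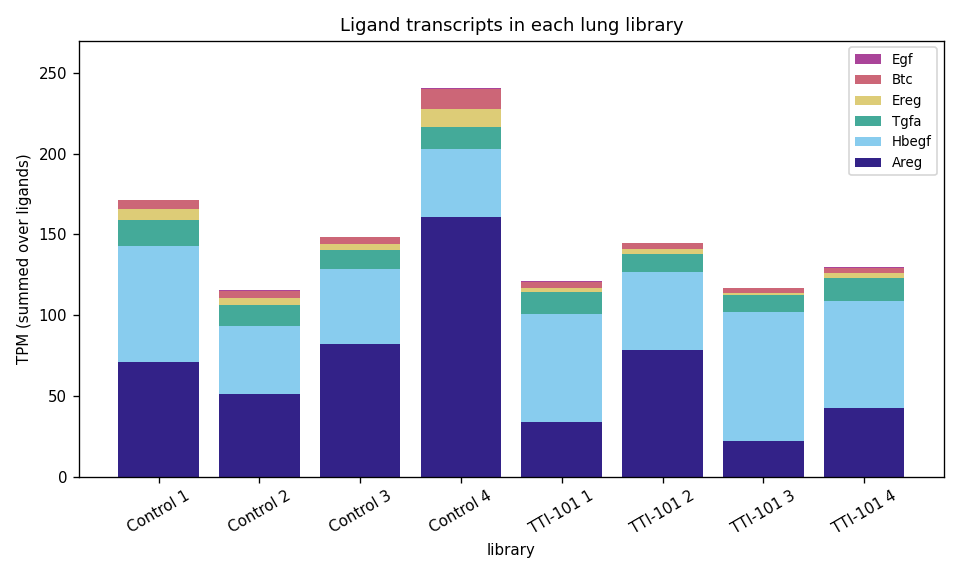
TPM of the 6 ligands stacked for each of the 8 libraries. The sum is 116 to 241 TPM in Control and 117 to 145 TPM in TTI-101, and the Areg portion is the largest in control mice 2, 3 and 4 and in TTI-101 mouse 2, with Hbegf the largest in the other mice. With the longer annotated length of Hbegf and the same counts, Areg is the largest in all mice but TTI-101 mouse 3.

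Of the ligands, Ereg, Areg and Btc are neighbors. With the epigen gene Epgn they lie within 376 kb of chromosome 5, a stretch in which the table lists 7 genes, 4 of which were tested. Epgn, the remaining EGFR ligand of the family, had 0 to 5 counts per library and was not tested. The non-coding genes Gm23092 and Gm19619 had at most 6 counts. Gm19610, annotated as antisense, overlaps the start of Ereg and had 5 to 29 counts (log2 fold change -0.67, edgeR unadjusted p = 0.185). The strand setting of the counting was not given, so reads of Ereg in the overlap could have been counted for either gene. The tested protein-coding ligands of this stretch were thus all lower in TTI-101, as was Tgfa on chromosome 6.

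Promoter sequences are shown for the ligands with lower levels, and for Errfi1 because it shares a motif with Areg. Entries were found for 7 of the 10 genes, with 9 promoters, and Ereg, Erbb3 and Hbegf were not among them. Each is the 250 bases before an annotated RefSeq transcript start on GRCm38.p6, written 5′ to 3′ on the strand of the gene. They are the promoter of Areg at chr5:91139349-91139598 (plus strand), of Btc at chr5:91402995-91403244 (minus strand), of Tgfa at chr6:86194972-86195221 (plus strand), and of the second start of Errfi1 at chr4:150854820-150855069 (plus strand). Capitals mark the cyclic AMP response element TGACGTCA.
Areg: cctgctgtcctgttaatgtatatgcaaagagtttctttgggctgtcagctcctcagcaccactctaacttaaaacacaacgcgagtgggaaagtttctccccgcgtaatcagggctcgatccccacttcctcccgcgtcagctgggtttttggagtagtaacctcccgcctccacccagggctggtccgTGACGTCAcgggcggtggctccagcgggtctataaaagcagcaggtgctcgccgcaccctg
Btc: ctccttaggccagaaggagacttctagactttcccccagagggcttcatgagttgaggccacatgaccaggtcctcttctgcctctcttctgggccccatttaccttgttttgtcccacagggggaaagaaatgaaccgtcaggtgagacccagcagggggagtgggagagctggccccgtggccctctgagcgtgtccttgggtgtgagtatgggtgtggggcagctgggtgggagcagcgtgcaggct
Tgfa: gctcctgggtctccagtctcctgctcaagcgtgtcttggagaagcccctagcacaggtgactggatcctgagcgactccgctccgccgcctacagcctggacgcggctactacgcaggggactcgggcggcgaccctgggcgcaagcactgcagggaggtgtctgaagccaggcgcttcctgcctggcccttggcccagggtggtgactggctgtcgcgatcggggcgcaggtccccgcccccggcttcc
Errfi1: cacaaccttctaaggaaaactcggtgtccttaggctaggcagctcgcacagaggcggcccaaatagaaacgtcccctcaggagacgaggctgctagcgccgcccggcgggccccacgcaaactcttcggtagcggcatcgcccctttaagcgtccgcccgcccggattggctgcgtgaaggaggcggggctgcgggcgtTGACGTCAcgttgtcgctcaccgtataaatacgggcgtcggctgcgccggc
Both strands were searched for TTCNNNGAA, the letters of a STAT site, TGANTCA, those of an AP-1 site, and TGACGTCA, which does not contain either. The STAT letters were in 0 of the 9 promoters, against 7.02% of 32851 RefSeq promoters of the same length, and the AP-1 letters were in 0, against 6.75%. TGACGTCA was found in Areg, 61 bases before the start, and in Errfi1, 51 bases before the start, against 1.55% of all promoters. A match is a string of letters in this window and not a measured binding site.

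Across the 8 mice several of the lower ligands correlated with each other and with Erbb3. Of 45 gene pairs, 29 had a positive and 16 a negative Pearson r of log2 CPM, and 8 had an exact permutation p under 0.05 after Benjamini-Hochberg adjustment over the pairs, which fell to 2 by Spearman's rho. Areg with Tgfa, Erbb3 with Btc and Erbb3 with Tgfa did not pass (adjusted p = 0.0832, 0.0736 and 0.132, exact permutation). The pair with the highest r was Areg and Erbb3, with r = 0.966 (n = 8, exact permutation p = 0.000471, adjusted p = 0.0106) and rho = 0.952 (p = 0.00114, adjusted p = 0.0257, exact permutation). It was 0.894 without the 2 mice farthest from the median, 0.941 without control mouse 4 and 0.953 after the group means were subtracted. Tgfa and Btc had r = 0.836 (adjusted p = 0.0106, exact permutation) and rho = 0.976 (adjusted p = 0.0179, exact permutation), with r of 0.794 without the 2 farthest mice and 0.718 within groups. The other pairs past adjustment by r were Ereg with Tgfa, Btc, Areg, Erbb3 and Egf and Areg with Btc, with r of 0.847 to 0.930. After the group means were subtracted, r of these pairs was 0.745 to 0.84. Of all 8 pairs, Erbb3 with Ereg lost most without the 2 farthest mice, to 0.456. Egfr went the other way from Erbb2 (r = -0.797, n = 8, exact permutation p = 0.0209, adjusted p = 0.0736). When CPM was scaled to library totals, 1 pair passed adjustment in place of 8, and without control mouse 4 no pair did. The r and its permutation p over 8 mice take in the difference between the groups. How often pairs of other genes pass was not determined, so the count of pairs has no background. The libraries share depth and tissue composition, so these are descriptions of how the genes varied.

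**Figure D4:**
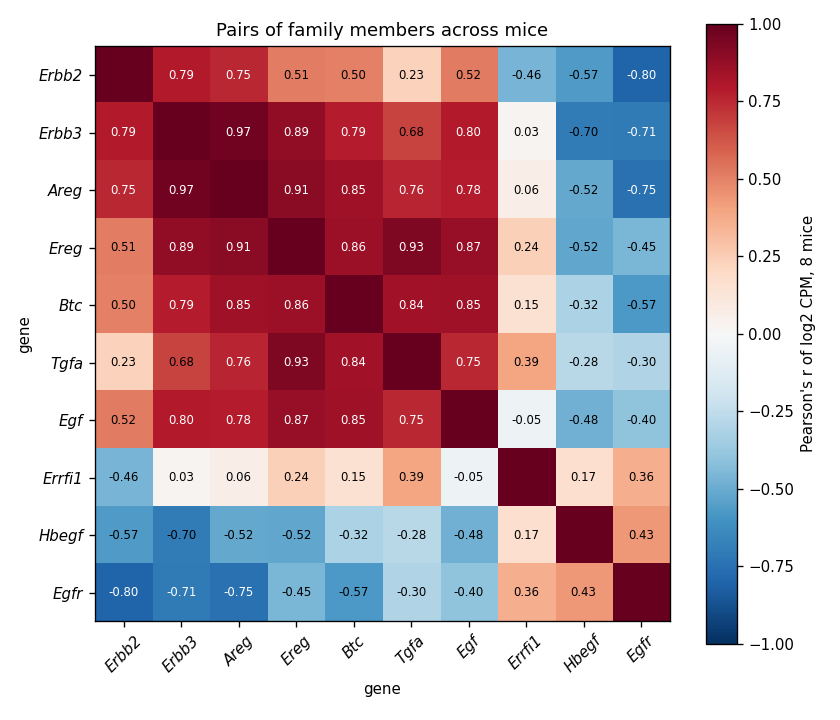
Pearson r of log2 CPM over the 8 mice for each pair of the 10 genes, with red for positive and blue for negative values. Erbb3, Areg, Ereg, Btc, Tgfa and Egf form a block of positive values that reaches 0.966 for Areg with Erbb3, and Egfr and Hbegf run against Erbb2 and Erbb3.

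Markers of epithelium moved with several of these genes. The mean log2 CPM of 10 pan-epithelial genes (Epcam, Cdh1 and keratin and claudin genes among them) was 6.97, 7.15, 7.41 and 8.11 in the control mice and 6.54, 7.50, 6.83 and 6.50 in the TTI-101 mice. The difference was -0.57 (exact permutation p = 0.143), with control mouse 4 highest and TTI-101 mouse 2 second among all mice, the order also seen for Erbb3. Of the 10 markers, 4 were lower at an unadjusted edgeR p under 0.05, beside 3.58% of all genes tested. The summed level of the 10 was 1826 to 3836 CPM in Control and 1462 to 2439 CPM in TTI-101. With this score as a covariate, a fit chosen after the data had been seen, 0 of the 10 family genes had an unadjusted edgeR p under 0.05, as did 1.44% of all genes tested. The log2 fold change was then -1.01 for Ereg (edgeR unadjusted p = 0.0513), -0.35 for Areg (edgeR unadjusted p = 0.273), -0.31 for Btc (edgeR unadjusted p = 0.431), -0.28 for Tgfa (edgeR unadjusted p = 0.119) and -0.09 for Erbb3 (edgeR unadjusted p = 0.683), and Egfr turned from 0.46 to -0.03. The scores of the other lists overlapped between the groups too. The difference of the score was -0.38 for alveolar type 2 cells, -0.49 for club cells, -0.71 for ciliated cells, 0.31 for alveolar type 1 cells, 0.45 for fibroblasts, 0.60 for endothelium and 1.30 for B cells, with exact permutation p of 0.0571 for B cells and at least 0.114 for the others named here. It was largest for red blood cells, at 2.28, and adipocytes, at 1.79 (exact permutation p = 0.0571 and 0.0857), and it was 1.14 for cardiomyocytes, 1.06 for neutrophils and 1.05 for mesothelium (exact permutation p of at least 0.2). At an unadjusted edgeR p under 0.05, 8 of 8 B cell markers, 4 of 5 tested red blood cell markers and 4 of 5 tested adipocyte markers were higher. This stands beside 3.02% of all genes tested. At the same threshold 4 of 9 tested ciliated cell markers and 2 of 7 club cell markers were lower, beside 3.58% of all genes tested. The part of these cell types in the gene differences was not tested. The covariate fit cannot separate the number of epithelial cells from RNA per cell, because the score is itself made of transcript levels.

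**Figure D5:**
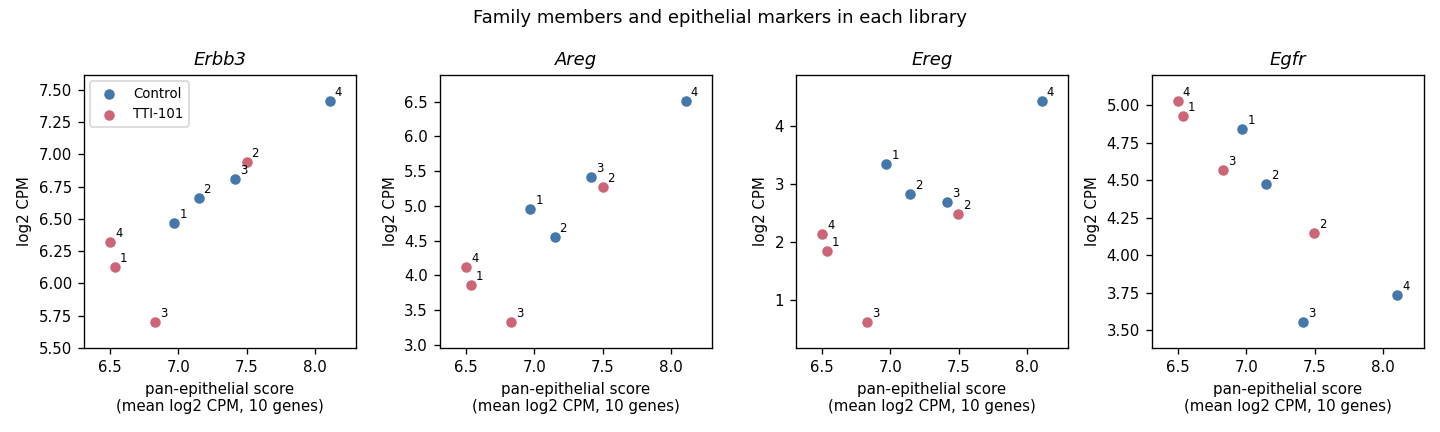
Log2 CPM of Erbb3, Areg, Ereg and Egfr against the pan-epithelial marker score, 1 dot per mouse, with Control and TTI-101 in different colors. In each group the mouse with the highest score is also highest for Erbb3 and Areg, while TTI-101 mouse 3 is low for both at a middle score; control mouse 4 has the highest score at 8.11, and TTI-101 mouse 2 has the highest treated score at 7.50.

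The rest of the family was scarce or did not pass the test. Erbb4, the receptor shared by neuregulins and several EGFR ligands, had 0 to 25 counts per library and was not tested, and Nrg3 had 0 to 2. The neuregulins Nrg1, Nrg2 and Nrg4, ligands of ERBB3 and ERBB4, were tested. Nrg1 averaged 6.06 ± 2.33 CPM (SD, n = 4) for the control mice against 6.81 ± 1.47 CPM (SD, n = 4) for the treated mice (log2 fold change 0.17, edgeR unadjusted p = 0.563). Nrg2 averaged 5.17 and 7.04 CPM (0.44, edgeR unadjusted p = 0.286) and Nrg4 2.27 and 2.69 CPM (0.24, edgeR unadjusted p = 0.477).

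In the wider pathway the share of genes past the threshold was near that of all genes. Of 67 further genes listed for the pathway, 63 were tested, 35 higher and 28 lower in TTI-101, with a median log2 fold change of 0.0052. An unadjusted edgeR p under 0.05 was reached by 1 higher gene and 3 lower genes (4 of 63, beside 6.61% of all genes tested), and 0 passed adjustment. Among the listed targets and feedback genes of ERK signaling, 6 of 16 were higher and 10 lower, with a median of -0.13. The list does not hold all genes that respond to ERK, so these counts give no direction for ERK output. Ccnd1 encodes cyclin D1 and drives entry into the cell cycle. It was the only gene of the 63 whose groups did not overlap, beside 1.43% of all genes tested that were lower without overlap. It was at 202.0, 208.7, 229.3 and 384.4 CPM in the control mice and at 152.2, 150.7, 146.2 and 142.4 CPM in the TTI-101 mice (log2 fold change -0.79, SE 0.208; edgeR unadjusted p = 0.00321, adjusted p = 0.657; exact permutation p = 0.0286). It kept an unadjusted p under 0.05 in all 8 fits without 1 mouse and, with the pan-epithelial covariate, had a log2 fold change of -0.45 (edgeR unadjusted p = 0.0415). Etv4, an ETS transcription factor induced by ERK, averaged 13.3 ± 7.93 CPM (SD, n = 4) and 6.12 ± 2.65 CPM (SD, n = 4). Its log2 fold change was -1.12 (edgeR unadjusted p = 0.0265), and -0.63 (edgeR unadjusted p = 0.109) without control mouse 4. Ier3, an immediate early gene, averaged 98.1 ± 20.6 CPM (SD, n = 4) and 138 ± 39.5 CPM (SD, n = 4), with a log2 fold change of 0.49 (edgeR unadjusted p = 0.0485). The unadjusted p was above 0.05 without control mouse 1 or 4 or TTI-101 mouse 2 or 3, and without TTI-101 mouse 3 the log2 fold change was 0.28 (edgeR unadjusted p = 0.176).

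Of the 8 other inhibitors of the receptors, 4 were higher and 4 lower, and Lrig1, which promotes receptor degradation, was the only one with an unadjusted p under 0.05. It averaged 49.6 ± 19.6 CPM (SD, n = 4) for the control mice against 31.9 ± 8.14 CPM (SD, n = 4) for the treated mice. The log2 fold change was -0.63 (edgeR unadjusted p = 0.0411), and it was -0.32 (edgeR unadjusted p = 0.158) without control mouse 4. The 6 genes of ligand shedding were 5 higher and 1 lower, none with an unadjusted edgeR p under 0.05. Among them the protease gene Adam10, which releases EGF and betacellulin, averaged 109.6 and 105.8 CPM, and Timp3, which inhibits such proteases, averaged 217 ± 96.0 CPM (SD, n = 4) and 297 ± 150 CPM (SD, n = 4). Of 15 adaptor and signaling genes, 10 were higher and 5 lower, with Plcg1 at 179.2 and 179.7 CPM and Crk at 167.3 and 164.3 CPM. Of 15 tested genes of receptor ubiquitination and trafficking, 7 were higher and 8 lower, with Rab7 at 302.2 and 311.9 CPM and Epn1 at 163.4 and 179.6 CPM. None of the adaptor or trafficking genes had an unadjusted edgeR p under 0.05.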

How the data were processed

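RNA of whole lungs was extracted after bead beating, and stranded poly(A) libraries were sequenced paired-end by a provider, 1 library per mouse. The submitters' processing notes name STAR, DESeq2 and mm10 without roles. The counting tool, annotation and strand setting were not given in the sources used here. The authors deposited whole-number counts per Ensembl gene, not normalized. Of the 54532 gene IDs, 54495 are in GENCODE M21, and 53585 have the same position there; Hbegf has another length (2373 bases against 4834) and position.

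From the counts, genes were kept with filterByExpr (minimum count 10), scaled by TMM and tested with edgeR's quasi-likelihood test (edgeR 4.0.16, R 4.3.3), TTI-101 against Control, without covariates, with Benjamini-Hochberg adjustment over all 17138 genes tested. Log2 CPM used a prior count of 2. Exact two-sided permutation tests covered all 70 assignments of mice, or all 40320 pairings for correlations. Alternatives were DESeq2 1.42.0, limma-voom (limma 3.58.1), other scalings and filters, a replicate block and leaving out mice. No library pair of a group agreed within sampling noise.

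The genes and lists were chosen with earlier results of these data known. Named beside the 10 genes were the rest of the family, further pathway genes with an unadjusted edgeR p under 0.05 (at most 5 each way), and the 2 most abundant genes of each role list with none of these.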

Additional observations from a re-analysis of the deposited data

Results flagged for a closer look

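The genes and marker scores named here were examined for a mouse far from the other 3 of its group, by the gap to the nearest mouse divided by the range of the group (Dixon's test). Of 88 groups examined 10 passed, where chance gives about 4.4, or 1 in 20. Among the family genes only Btc passed, with control mouse 4 at 26.7 CPM (gap 0.949 of the range). The same mouse stood apart as high for Ccnd1, at 384.4 CPM (0.85), and as low for the marker scores of alveolar type 1 cells, at 7.74 log2 CPM (0.845), and endothelium, at 6.77 log2 CPM (0.898). Its high share of mitochondrial counts is given above, and the part of library quality in these values was not tested.

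TTI-101 mouse 2 stood apart in its group as low for the alveolar type 1 score, at 8.30 log2 CPM (0.873), and as high for the ciliated cell score, at 6.17 log2 CPM (0.904). The mesothelium score was high in TTI-101 mouse 3, at 4.996 log2 CPM (0.903). Among other pathway genes, Nrg1 was high in TTI-101 mouse 4 at 9.001 CPM (0.855), and Crk was low in control mouse 3 at 133.6 CPM (0.954). Nrg3 had a single count in control mouse 1 and none in the other control mice, which gives a gap of 1.0 of the range.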

How the results depend on the processing

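Genes called after adjustment numbered 0 by edgeR and 4 by DESeq2, and 0 to 1 when 1 mouse was left out. The 1132 genes at an unadjusted p under 0.05 became 1849 without the filter on low counts, 246 with the pan-epithelial score, 2106 without control mouse 4 and TTI-101 mouse 2 together, and 422 to 2498 without 1 mouse. The 4 family genes at that threshold (beside 6.61% of all genes tested) became 3 by DESeq2, DESeq2 size factors, library totals and 10 counts in every library (Tgfa lost). They became 2 by limma-voom, 2 without the filter and 0 with the pan-epithelial score (beside 1.44%). Without 1 mouse they became 1 to 5, given here with all genes that passed in the same fit. The count was 1 without control mouse 4 (531 genes), TTI-101 mouse 3 (422) or TTI-101 mouse 4 (758). It was 2 without TTI-101 mouse 1 (711), and 5 without control mouse 1 (2393) or TTI-101 mouse 2 (2498). The 4 other pathway genes (beside 6.61% of all genes tested) became 2 by limma-voom and 1 with the score (beside 1.44%). They became 8 without both mice (beside 12.2%) and 1 to 8 without 1 mouse. The 8 came without TTI-101 mouse 2, where 14.2% of all genes passed. The family genes at an exact permutation p under 0.05 numbered 3, and 0 to 3 without 1 mouse. With all 8 mice, only genes whose groups do not overlap pass that threshold. These are thus the same 3 genes, Ereg, Btc and Tgfa, beside 1.43% of all genes tested that were lower without overlap. The 8 gene pairs became 1 with library totals and 0 to 10 without 1 mouse (0 without control mouse 4, 2 without TTI-101 mouse 3). The pan-epithelial and 2-mouse fits and the longer Hbegf length were chosen after seeing the data.

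With the pan-epithelial score, the log2 fold change turned in sign to -0.026 for Egfr, 0.17 for Erbb2, -0.018 for Errfi1, -0.18 for Nrg2, -0.071 for Nrg4, -0.48 for Timp3, -0.045 for Plcg1 and -0.066 for Rab7. Without both mice it turned to 0.087 for Adam10, -0.091 for Plcg1, 0.11 for Crk and -0.011 for Rab7, and with library totals to 0.015 for Crk. Without 1 mouse the values crossed 0 for Errfi1 (-0.13 to 0.37, and -0.14 to 0.35 as a difference in mean log2 CPM), Adam10 (-0.17 to 0.064), Plcg1 (-0.051 to 0.064), Crk (-0.12 to 0.093) and Rab7 (-0.022 to 0.095). The cause of these changes was not tested.

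Replicate numbers were not shown to pair the mice: deviations of same-numbered mice correlated at 0.0707 to 0.393 over 4 pairs, and 4 of 8 libraries correlated best with their own number. Library totals were highest for mouse 1 in both groups (26873509 and 25920509 counts) and next for mouse 3 (18220467 and 17982612 counts). Mice 2 and 4 were in opposite order in the groups. The reason for this match in depth was not tested. With a replicate block, 0 genes passed adjustment, 1298 had an unadjusted edgeR p under 0.05, and 3 family genes did so (Areg, Ereg and Tgfa). Depth limits Egf, at 18 to 43 counts, and Erbb4, Epgn and Nrg3, which were below the filter. Counts were also low for Ereg in the TTI-101 mice, at 26 to 93.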
